A study of Mus musculus with 83 samples.

Results

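The genes of blood and lymphatic endothelium described here were 10 of the 37764 genes in a table of RNA-seq read pairs per gene from mouse colon. They were picked out of the table by their symbols. Of them, 8 are pan-endothelial (Pecam1, Cdh5, Kdr, Flt1, Tek, Tie1, Sox17 and Sox18) and 2 are lymphatic (Lyve1 and Prox1), and the 2 groups are kept apart below. The table covered 83 male mice of the strain C57BL/6J/Ukj, which were kept only for aging and for which the labels name no engineered allele and no treatment. Groups of 16 mice were 3, 9 and 15 months old, 17 mice were 24 months old and 18 were 28 months old, and every mouse gave 1 library of polyadenylated RNA from the proximal section of the colon. Each of the 10 genes passed the filter on low counts, and the lowest count of any of them in any mouse was 57 read pairs (Sox17 at 9 months).

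Endothelial cells line blood and lymphatic vessels, and in bulk tissue their genes report on the vessels of the mucosa, submucosa and muscle together. Pecam1 (CD31) and Cdh5 (VE-cadherin) are junction proteins that hold neighbouring endothelial cells together. Kdr (VEGFR2) is the main signalling receptor for VEGF-A, and Flt1 (VEGFR1) binds VEGF-A tightly and limits how much reaches Kdr. Tek (Tie2) is the receptor for the angiopoietins, and Tie1 is its orphan partner. Sox17 and Sox18 are SoxF transcription factors of endothelium, Sox17 mostly of arteries and Sox18 also of early lymphatic vessels. Lyve1 is a hyaluronan receptor of lymphatic capillaries that some tissue macrophages also carry, and Prox1 is the transcription factor that sets lymphatic identity, with further sites of expression in neurons, endocrine cells and muscle. In bulk RNA, fewer cells of a type and less RNA per cell cannot be told apart.

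Promoter sequences are shown for the receptor genes Kdr, Flt1 and Tek, because these belong to the pairs (Kdr with Flt1, Tek with Tie1) whose members are compared with each other below. The RefSeq table (GRCm38.p6) held an entry for 5 of the 10 genes, Kdr, Flt1, Tek, Tie1 and Prox1, and not for Pecam1, Cdh5, Sox17, Sox18 and Lyve1. Each line gives the 250 bases before the annotated start, 5′ to 3′ on the strand of the gene, at chr5:75978456-75978705 (minus strand) for Kdr, chr5:147726012-147726261 (minus) for Flt1 and chr4:94739039-94739288 (plus) for Tek. Capitals mark matches, on either strand, to AGGAAG, a core bound by ETS factors such as Erg and Fli1, and to AACAAT, a core bound by SOX factors, and no matches overlapped.
Kdr: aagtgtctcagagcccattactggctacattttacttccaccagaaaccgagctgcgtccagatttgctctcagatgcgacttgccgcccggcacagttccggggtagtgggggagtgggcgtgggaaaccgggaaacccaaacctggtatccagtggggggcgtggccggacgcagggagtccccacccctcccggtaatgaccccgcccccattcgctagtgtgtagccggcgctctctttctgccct
Flt1: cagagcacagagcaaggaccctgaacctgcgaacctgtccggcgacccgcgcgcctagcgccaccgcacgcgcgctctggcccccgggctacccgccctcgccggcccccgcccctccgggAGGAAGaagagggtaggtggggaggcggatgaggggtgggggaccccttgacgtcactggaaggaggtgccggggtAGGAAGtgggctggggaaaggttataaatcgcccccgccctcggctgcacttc
Tek: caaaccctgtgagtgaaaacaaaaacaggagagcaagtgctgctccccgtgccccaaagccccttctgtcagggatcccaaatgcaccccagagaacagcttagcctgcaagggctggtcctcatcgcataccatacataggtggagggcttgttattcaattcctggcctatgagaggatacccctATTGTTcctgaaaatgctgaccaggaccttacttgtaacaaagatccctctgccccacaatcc
The Flt1 window held AGGAAG 2 times, with first bases 129 and 53 bases before the start. The Tie1 window, which is not printed, held AGGAAG once, on the opposite strand and 219 bases before the start. The Tek window held AACAAT once, on the opposite strand and 63 bases before the start. By the other annotation used here, the Tie1 and Kdr windows overlap their own genes, and the first Prox1 window lies inside the Prox1 gene. Neither run of letters was found in the Kdr window or in the 2 Prox1 windows. Of all 32851 windows of the same length in the table, 29.5% held AGGAAG and 9.42% held AACAAT. A window with AGGAAG is thus common and one with AACAAT less so, and the share holding AGGAAG 2 times was not counted.

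The depth was 23026370 to 75838290 read pairs per mouse, libraries were prepared in 3 batches with 4 to 7 mice of every age in each, and no pair of mice of 1 age agreed within counting noise. Markers of colon epithelium (Cdh1, Epcam, Krt8, Krt20, Vil1 and Cdx2) were abundant in every mouse, with summed levels of 5598 to 11008 CPM (read pairs scaled to a common library size with TMM factors). A single library stood apart, 15 months replicate 16. It was the lowest of all 83 mice for Pecam1, Cdh5, Kdr, Flt1, Tek and Tie1 and the second lowest for Sox18, and also the lowest for the summed epithelial markers (5598 CPM against a median of 8488) and the summed fibroblast markers (351 against 618). It was also the lowest of all 83 for the summed VEGF and angiopoietin, further pan-endothelial, arterial, venous and further lymphatic genes (148 against 226 CPM for the last), while its summed leukocyte markers were at rank 70 from the lowest (124 against 95.6). Its Lyve1 and Prox1 levels were at rank 12 and rank 5 from the lowest of the 16 mice of that age. Calls between 15 and 24 months are given with and without it.

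Compared per transcript length, as TPM over all 83 mice, Lyve1 had the highest level of the 10 genes at 22.2 ± 3.84 (mean ± SD, n = 83). Pecam1 followed at 18.6 ± 2.29, Sox18 at 13.2 ± 2.64, Cdh5 at 12.8 ± 2.08, Kdr at 9.72 ± 1.48, Tie1 at 9.23 ± 1.36, Tek at 6.49 ± 0.932, Flt1 at 6.04 ± 0.908, Prox1 at 2.38 ± 0.456 and Sox17 at 2.17 ± 0.488. In this order the means of the neighbours Lyve1 and Pecam1, Sox18 and Cdh5, Kdr and Tie1, Tek and Flt1, and Prox1 and Sox17 differed by less than the larger of their SDs. The other neighbours differed by more, and Pecam1 was above Sox18, Tie1 above Tek and Flt1 above Prox1 in all 83 mice. The mean level of Lyve1 was above that of 66.2% of the genes tested and that of Sox17 above 24.4%.

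The step between neighbouring ages at which pan-endothelial genes passed the test was that from 15 to 24 months, the longest of these intervals. From 15 to 24 months 6 of the 8 rose (Pecam1, Cdh5, Kdr, Flt1, Tie1 and Sox17) and none fell. The test for a course that is not straight in age, given further on, passed for 1 of the 8 (Pecam1), where 16.2% of all genes passed. Lyve1 rose over the same interval by a similar amount, and Prox1 showed no change that passed the test at any age. The test was edgeR's quasi-likelihood F-test with age group and library batch, with Benjamini-Hochberg adjustment over 18325 genes and a threshold of 0.1, and log2 fold changes below are older minus younger with their SE. Among all genes tested, 13.5% passed between 24 and 15 months and 6.28% passed with a higher level at 24 months. The 8 pan-endothelial log2 fold changes ran from 0.15 to 0.27 with a median of 0.24, where the median over all genes tested was 0.00. Without 15 months replicate 16, 6 of the 10 genes passed, with log2 fold changes of 0.22 for Pecam1, 0.22 for Cdh5, 0.23 for Flt1, 0.22 for Tie1, 0.27 for Sox17 and 0.31 for Lyve1, and Kdr was lost. In that fit 2593 of 18363 genes tested passed. With library sizes alone in place of TMM, 70.1% of all called genes were higher at 24 months instead of 46.4%, and the median over all genes was 0.03.

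**Figure D1:**
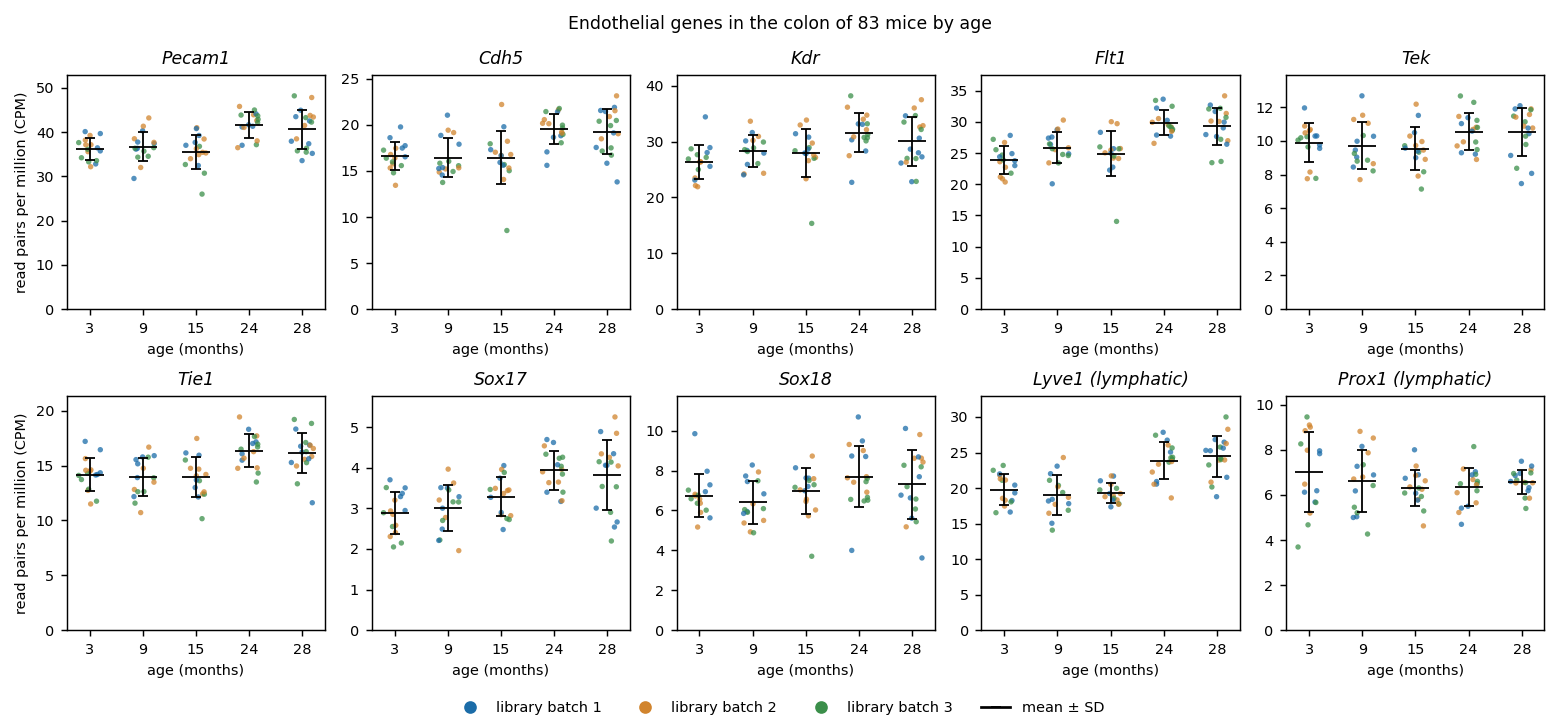
Level of each gene in each mouse, in CPM on axes that start at 0, by age in months. Points are mice coloured by library batch, and black bars are the mean ± SD. Most pan-endothelial genes and Lyve1 are higher at 24 than at 15 months, for example Pecam1 with means of 41.7 and 35.6. This is the longest interval between neighbouring ages. The Prox1 means stay between 6.31 and 7.01, and the spread of Prox1 narrows with age.

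Of the junction genes, Pecam1 (chr11:106654217-106750628, minus strand) ranged from 26.0 to 41.0 CPM at 15 months, with a median of 35.9, and from 36.5 to 45.8 at 24 months, with a median of 42.2. The groups overlapped, but all 17 mice at 24 months lay above the median of the 15-month mice and 13 lay above every one of them. This was a log2 fold change of 0.24 ± 0.05 (edgeR adjusted p = 0.000346), a rise of 18.0%. Cdh5 (chr8:104101625-104144511, plus strand) ranged from 8.53 to 22.2 CPM at 15 months, with a median of 16.7, and from 15.6 to 21.8 at 24 months, with a median of 19.7. Here 16 of 17 mice at 24 months exceeded the 15-month median, yet none exceeded the highest 15-month mouse. For Cdh5 the log2 fold change was 0.27 ± 0.06 (edgeR adjusted p = 0.00558). Within the batches the Cdh5 difference was 0.10, 0.24 and 0.53, and without batch 3, the batch of 15 months replicate 16, Cdh5 no longer passed (0.17, edgeR adjusted p = 0.159).

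Both VEGF receptors rose. Flt1 (chr5:147561604-147726011, minus strand) ranged from 14.05 to 30.0 CPM at 15 months, with a median of 25.3, and from 26.6 to 33.6 at 24 months, with a median of 29.4. All 17 mice at 24 months were above the 15-month median, and 13 of the 16 mice at 15 months were below every mouse at 24 months. Flt1 had a log2 fold change of 0.27 ± 0.05 (edgeR adjusted p = 0.000825), and it stayed past the threshold in every alternative fit (highest adjusted p 0.0303). Kdr (chr5:75932827-75978458, minus strand) ranged from 15.3 to 33.8 CPM at 15 months, with a median of 28.1, and from 22.7 to 38.2 at 24 months, with a median of 31.3. Its log2 fold change was 0.18 ± 0.07 (edgeR adjusted p = 0.0767). This is the least secure of the calls, since without 15 months replicate 16 the value was 0.14 (edgeR adjusted p = 0.115), and the difference was -0.00 within batch 1 and 0.42 within batch 3.

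Of the angiopoietin receptors, Tie1 (chr4:118471191-118490061, minus strand) ranged from 10.2 to 17.5 CPM at 15 months, with a median of 13.9, and from 13.5 to 19.4 at 24 months, with a median of 16.5. Of the 17 mice at 24 months, 16 lay above the 15-month median. The log2 fold change was 0.24 ± 0.06 (edgeR adjusted p = 0.00543) and was 0.25, 0.20 and 0.31 within the 3 batches. Its partner Tek (chr4:94739289-94874976, plus strand) ranged from 7.14 to 12.2 CPM at 15 months, with a median of 9.52, and from 8.90 to 12.7 at 24 months, with a median of 10.7. The Tek log2 fold change of 0.15 ± 0.06 did not pass in edgeR (adjusted p = 0.127) and did in DESeq2 (adjusted p = 0.0957), in edgeR with library sizes only (adjusted p = 0.0715) and in edgeR with only these 2 ages (adjusted p = 0.083). Within batches it was 0.04, 0.07 and 0.37, and without batch 3 it was 0.06 (edgeR adjusted p = 0.72).

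The SoxF factors had the lowest counts of the pan-endothelial group and, at 28 months, the widest relative spread, with a CV of 22.6% for Sox17 and 23.4% for Sox18. Sox17 (chr1:4490931-4497354, minus strand) ranged from 2.48 to 4.05 CPM at 15 months, with a median of 3.40, and from 3.17 to 4.69 at 24 months, with a median of 3.96. At 24 months 7 of 17 mice exceeded every 15-month mouse. The log2 fold change was 0.27 ± 0.09 (edgeR adjusted p = 0.0509), and it was 0.28, 0.19 and 0.33 within the 3 batches, but leaving out any 1 batch ended the call. Sox18 (chr2:181669836-181671640, minus strand) had medians of 7.18 CPM at 15 months and 7.61 at 24 months in groups that overlapped widely, with a log2 fold change of 0.16 ± 0.10 (edgeR adjusted p = 0.318).

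Of the lymphatic genes, Lyve1 (chr7:110850607-110863239, minus strand) ranged from 17.4 to 21.7 CPM at 15 months, with a median of 19.1, and from 18.6 to 27.8 at 24 months, with a median of 24.1. The groups overlapped, with 16 of 17 mice at 24 months above the 15-month median and 13 above every 15-month mouse. Lyve1 thus differed by a log2 fold change of 0.30 ± 0.06 (edgeR adjusted p = 0.000333), a rise of 23.2%, and was 0.30, 0.21 and 0.39 within the 3 batches. Lyve1 kept this call in every alternative fit (highest adjusted p 0.0205). Prox1 (chr1:190118035-190170714, minus strand) ranged from 4.63 to 8.004 CPM at 15 months, with a median of 6.28, and from 4.70 to 8.15 at 24 months, with a median of 6.50. Its log2 fold change was 0.02 ± 0.09 (edgeR adjusted p = 0.911), and the batches differed in sign, at -0.19, -0.01 and 0.20.

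The other steps between neighbouring ages held no call among the 10 genes. Between 3 and 9 months 0 of 10 passed in edgeR and 0 in DESeq2, with 1 at an unadjusted p under 0.05 (Flt1, 0.11 ± 0.06), where 8.69% of all genes tested were called. Between 9 and 15 months 0 of 10 passed in either tool and 0 had an unadjusted p under 0.05, against 0.431% of all genes. Between 24 and 28 months 0 of 10 passed in either tool and 0 had an unadjusted p under 0.05, against 11.7% of all genes. All 8 pan-endothelial values at this last step were slightly below 0 (-0.08 to -0.01), and the 95% interval for Pecam1 ran from -0.12 to 0.05 and that for Cdh5 from -0.15 to 0.10.

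Across the whole span the same genes stood out. Between 3 and 28 months 6 of the 8 pan-endothelial genes and Lyve1 were higher at 28 months and none was lower, in a comparison in which 49.4% of all genes tested passed and 23.5% passed with a higher level at 28 months. With library sizes alone, 58.9% of all called genes were higher instead of 47.5%. The pan-endothelial log2 fold changes ran from 0.09 to 0.41 with a median of 0.19, against -0.01 over all genes. This comparison and that of 15 with 24 months share no mouse, but both come from 1 fit with a shared estimate of the spread.

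**Figure D2:**
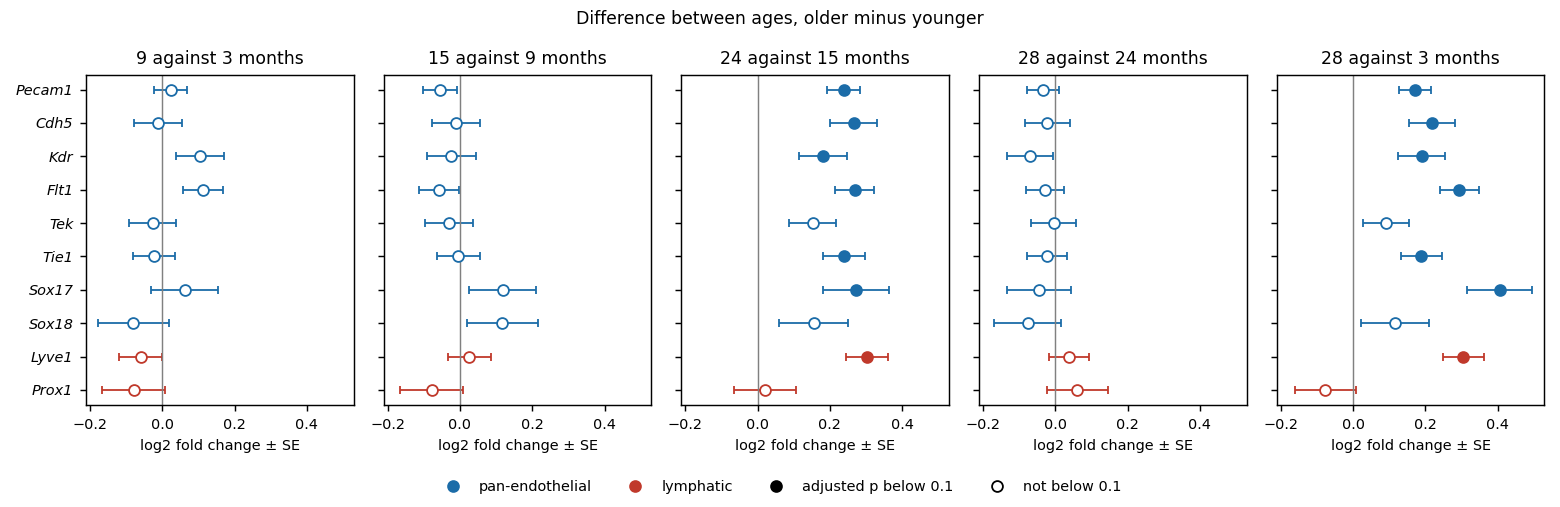
Log2 fold change (older minus younger) ± SE of each gene in 5 comparisons of ages, on 1 shared axis. Filled points passed an adjusted p of 0.1 (edgeR quasi-likelihood F-test) and blue and red mark pan-endothelial and lymphatic genes. Filled points appear only in the panels for 24 against 15 months and 28 against 3 months, where 7 of 10 genes passed.

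Sox17 showed the largest difference of the 10 over this span. It ranged from 2.05 to 3.70 CPM at 3 months, with a median of 2.91, and from 2.20 to 5.25 at 28 months, with a median of 4.06. The groups overlapped, and 11 of the 18 oldest mice exceeded every mouse at 3 months. The log2 fold change was 0.41 ± 0.09 (edgeR adjusted p = 0.000175), a rise of 32.5%, but it was 0.08 within batch 1, 0.74 within batch 2 and 0.36 within batch 3. Flt1 ranged from 20.4 to 27.8 CPM at 3 months and from 23.5 to 34.2 at 28 months, with medians of 23.8 and 30.0 and 12 of 18 old mice above every young one. Its log2 fold change was 0.29 ± 0.05 (edgeR adjusted p = 6.99e-06).

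The remaining pan-endothelial calls between 3 and 28 months were smaller. Pecam1 differed by 0.17 ± 0.05 (edgeR adjusted p = 0.00138), Cdh5 by 0.22 ± 0.06 (edgeR adjusted p = 0.00356), Kdr by 0.19 ± 0.07 (edgeR adjusted p = 0.0146) and Tie1 by 0.19 ± 0.06 (edgeR adjusted p = 0.00526). Of these 4 genes, Pecam1 alone held its call in every alternative fit, and all were smallest within batch 1, at 0.08, 0.04, 0.02 and 0.04. Tek (0.09, 95% interval -0.04 to 0.22) and Sox18 (0.12, 95% interval -0.07 to 0.30) did not pass, and their intervals include the size of the Pecam1 difference.

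Lyve1 ranged from 16.5 to 23.2 CPM at 3 months, with a median of 19.9, and from 18.8 to 30.0 at 28 months, with a median of 24.7. Of the 18 oldest mice, 17 were above the 3-month median and 14 above every mouse at 3 months. The log2 fold change was 0.31 ± 0.06 (edgeR adjusted p = 1.02e-05) and nearly the same within each batch (0.32, 0.32 and 0.28). Prox1 ranged from 3.69 to 9.46 CPM at 3 months, with a median of 7.16, and from 5.40 to 7.50 at 28 months, with a median of 6.58. The old mice thus lay inside the range of the young ones, and the CV of Prox1 narrowed from 25.2% among the youngest and 20.5% among the 9-month mice to 12.6%, 13.3% and 8.06% in the 3 older groups, in order of age. Its log2 fold change was -0.08 ± 0.09 (edgeR adjusted p = 0.487, 95% interval -0.25 to 0.09).

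Over all 5 ages, 8 of the 10 genes differed by age in edgeR (all but Tek, adjusted p = 0.112, and Prox1, adjusted p = 0.486), where 54.9% of all genes tested did. The test for a course that is not straight in age passed for 2 of the 10, Lyve1 (edgeR adjusted p = 0.022) and Pecam1 (edgeR adjusted p = 0.0462), where 16.2% of all genes passed. This count moved in both directions with the setting. With library batch 3 left out 0 of 10 passed in edgeR, where 10.2% of all genes did, and without batch 1 or batch 2 it was 1 of 10, where 3.09% and 8.69% of all genes did. With library sizes only it was 5 of 10 (Cdh5, Flt1 and Tie1 besides Lyve1 and Pecam1, 18.3% of all genes), and with the smooth muscle covariate described below it was 4 of 10 (Tie1 and Prox1 besides the same pair, 20.1% of all genes).

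Whether members of a pair changed unequally between 3 and 28 months was tested on the log2 ratio of their CPM in each mouse, with two-sided permutation tests of 100000 resamples, adjusted over the 4 ratios. The ratio of Lyve1 to Prox1 rose by 0.35, from a mean of 1.53 ± 0.45 (SD, n = 16) to 1.88 ± 0.23 (n = 18), with 17 of 18 old mice above the young median (permutation p = 0.0074, adjusted 0.0159). Within batches it rose by 0.30, 0.54 and 0.19. The ratio of Sox17 to Sox18 rose by 0.29 (permutation p = 0.00794, adjusted 0.0159), with 16 of 18 old mice above the young median and 0.22, 0.39 and 0.29 within batches. The receptor ratios moved less. Kdr to Flt1 fell by 0.11 (permutation p = 0.0365, adjusted 0.0365) and Tek to Tie1 fell by 0.10 (permutation p = 0.0257, adjusted 0.0342), but within batch 2 the first differed by -0.01 and the second by 0.02. Each of the 4 ratios lost its call without at least 1 of the batches.

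**Figure D3:**
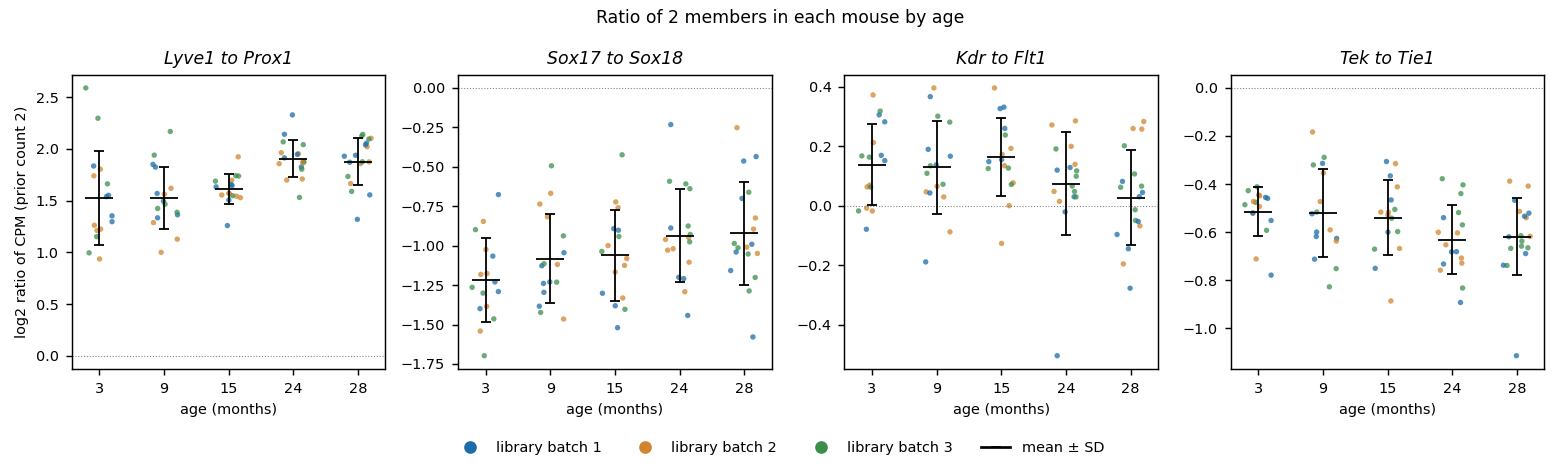
Log2 ratio of CPM (prior count of 2) of 4 pairs of genes in each mouse, by age in months, coloured by library batch, with the mean ± SD in black. The Lyve1 to Prox1 ratio has means of 1.53, 1.53 and 1.61 in the 3 younger groups and of 1.91 and 1.88 in the 2 older ones, and it scatters most at 3 months.

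How far the genes varied together from mouse to mouse was examined on residuals of log2 CPM after age group and library batch, over 83 mice. These correlations share the library, its depth and the composition of the tissue piece, and those without a p are descriptions. They include 15 months replicate 16, the lowest of all 83 mice for Pecam1, Cdh5, Kdr, Flt1, Tek and Tie1. The r of the gene pairs, the ranks of like genes and the list medians below were not computed with that mouse alone left out. The 28 pairs of pan-endothelial genes had Pearson's r from 0.30 to 0.71, with a median of 0.50, and Cdh5 was closest to the others with a median of 0.67. Lyve1 had a median of 0.35 with the 8 pan-endothelial genes, from 0.08 with Sox17 to 0.46 with Tek. Prox1 had a median of 0.14, from -0.10 with Sox18 to 0.21 with Pecam1.

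**Figure D4:**
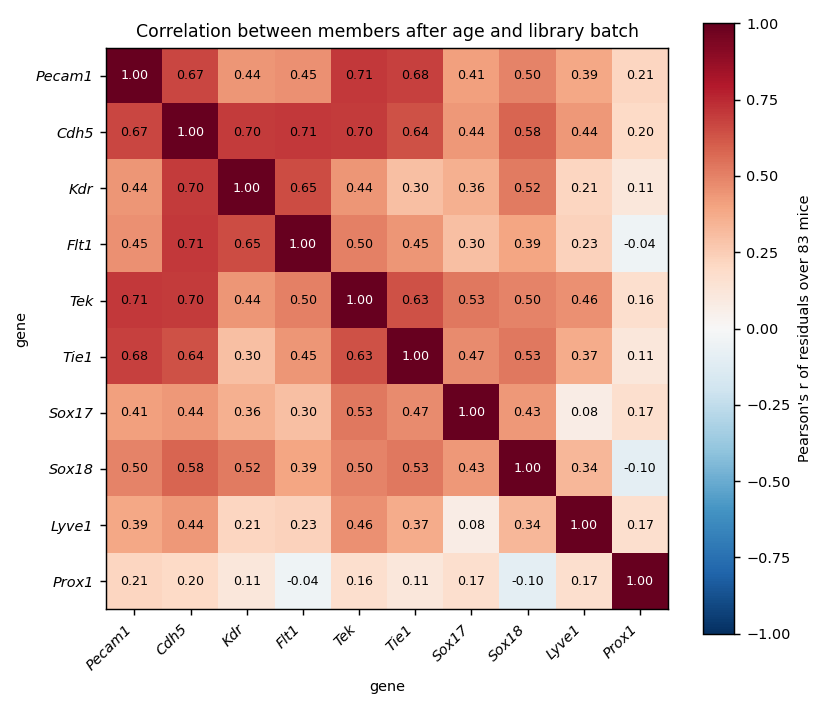
Pearson's r between each pair of the 10 genes over 83 mice, on residuals of log2 CPM after age group and library batch, from -1 (blue) to 1 (red). The pan-endothelial block lies between 0.30 and 0.71, while the Prox1 row lies between -0.10 and 0.21. The 83 mice include 15 months replicate 16.

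Of the relations between genes, 7 were tested by permutation with 100000 resamples and adjusted together. Pecam1 and Cdh5 had r = 0.67 and rho = 0.62 (permutation p = 1e-05 for each, the smallest that the resamples can give, adjusted 3.5e-05), with r = 0.61 without the 2 mice farthest out on Pecam1 and 0.58, 0.61 and 0.80 within batches. Kdr and Flt1 had r = 0.65 and rho = 0.55 (permutation p = 1e-05 for each, adjusted 3.5e-05), with r = 0.58 without the 2 farthest mice and 0.42, 0.48 and 0.91 within batches. The values within batch 3, 0.80 and 0.91, include 15 months replicate 16. Mice with more of one gene of these pairs tended to have more of the other.

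For the lymphatic genes the relations were weaker. Lyve1 and Prox1 had r = 0.17 (permutation p = 0.132, adjusted 0.153) and rho = 0.19 (permutation p = 0.0827, adjusted 0.0964), with r = 0.12 without the 2 farthest mice and 0.34, 0.35 and -0.11 within batches. Prox1 and Flt4, the gene of the lymphatic VEGF receptor VEGFR3, had r = 0.41 (permutation p = 0.00013, adjusted 0.000303) and rho = 0.41 (permutation p = 0.00015, adjusted 0.00035), with r = 0.40 without the 2 farthest mice and 0.51, 0.31 and 0.42 within batches. Prox1 and Chga, a granule protein of enteroendocrine cells, had r = -0.04 (permutation p = 0.737, adjusted 0.737) and rho = -0.02 (permutation p = 0.838, adjusted 0.838), with r = 0.04 without the 2 farthest mice and -0.08, -0.12 and 0.05 within batches.

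The immune genes that can be read together with endothelial ones were also compared. Pecam1 and Ptprc (CD45, on all leukocytes) had r = 0.30 (permutation p = 0.00558, adjusted 0.00976) and rho = 0.29 (permutation p = 0.00762, adjusted 0.0133), with r = 0.35 without the 2 farthest mice and 0.55, 0.19 and 0.15 within batches. Lyve1 and Mrc1 (CD206, on tissue macrophages) had r = 0.28 (permutation p = 0.0118, adjusted 0.0166) and rho = 0.27 (permutation p = 0.0147, adjusted 0.0205), with r = 0.24 without the 2 farthest mice and 0.10, 0.57 and 0.13 within batches. Ptprc itself did not pass between 3 and 28 months (-0.14, edgeR adjusted p = 0.281), and Mrc1 passed (0.20, edgeR adjusted p = 0.0855).

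The genes most like each of 3 members among the 14962 genes whose mean reached 1 CPM were ranked by the same r. For Cdh5 they were Notch3 (0.82), a receptor of vascular smooth muscle cells and pericytes, Mmrn2 (0.76) and Eng (0.75), which are endothelial, and Prelp (0.74) and Lamc1 (0.74), which encode matrix proteins. For Lyve1 the nearest was Mmrn1 (0.58), a further gene of lymphatic endothelium, followed by Axl (0.56), Pea15a (0.56), Igfbp5 (0.55) and C1qtnf3 (0.55). For Prox1 they were Cacna2d1 (0.77), a calcium channel subunit, Faxc (0.76), Zfhx4 (0.76), Dpp10 (0.76), which modulates potassium channels, and Ryr3 (0.75), a calcium release channel. None of these 5 was in the lymphatic lists, and none of them passed between 3 and 28 months (edgeR adjusted p of 0.173 to 0.957).

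Prox1 varied with markers of several cell types, and so did the pan-endothelial genes. With the 6 fibroblast markers, the median r of the pan-endothelial genes ran from 0.23 (Sox17) to 0.57 (Cdh5), and that of Prox1 was 0.21. Over the 8 other lymphatic genes tested, the median r of Prox1 was 0.38 (-0.13 to 0.55), close to that of Lyve1 with the same genes (0.36). Over the 6 smooth muscle markers it was 0.58 (0.56 to 0.67), over the 8 markers of enteric neurons and glia 0.57 (0.46 to 0.66) and over the 6 epithelial markers -0.25, where Lyve1 had 0.19, 0.17 and 0.01. These medians were looked at after the values of Prox1 were known. The summed smooth muscle level was more spread in young mice, from 828 to 5241 CPM at 3 months against 2544 to 4774 at 28 months, as the Prox1 level was. With the mean log2 level of the smooth muscle markers as a covariate, a fit chosen after seeing the data, Prox1 was lower at 28 than at 3 months (-0.16, edgeR adjusted p = 0.0591), Lyve1 stayed at 0.28 (edgeR adjusted p = 6.39e-05) and the 6 pan-endothelial calls held.

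**Figure D5:**
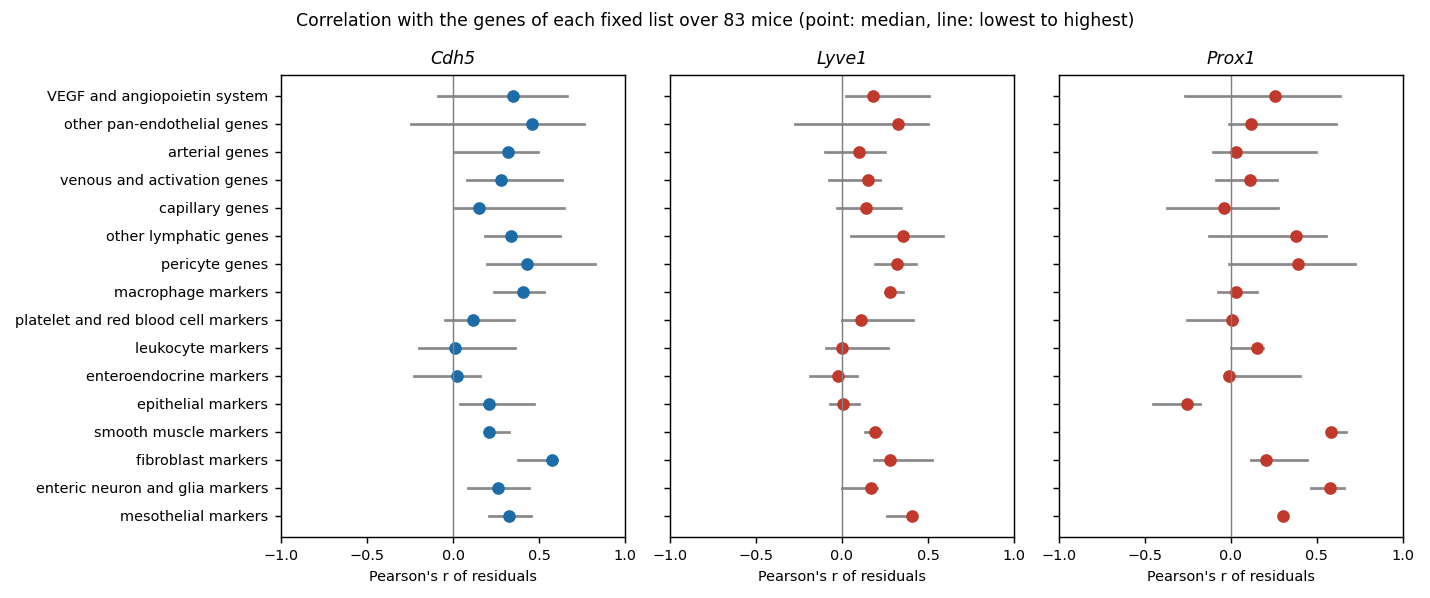
Pearson's r of Cdh5, Lyve1 and Prox1 with the genes of 16 fixed lists over 83 mice, on residuals after age group and library batch. Points are the median over the genes of a list and lines run from the lowest to the highest gene. Prox1 has its highest medians with smooth muscle (0.58) and enteric neuron and glia markers (0.57), where Lyve1 has 0.19 and 0.17.

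The ligands and further receptors of the members were counted next. Of 12 genes of the VEGF and angiopoietin system, 6 were higher at 28 than at 3 months, none was lower and 6 did not pass, with a median log2 fold change of 0.22. In this comparison, used for each list below, 49.4% of all genes tested passed and 23.5% passed with a higher level. Angpt4, an angiopoietin, rose by 0.82 ± 0.19 (edgeR adjusted p = 0.000338) at a low level of 0.531 to 0.929 CPM on average, Pgf, a VEGF family ligand of Flt1, by 0.51 ± 0.12 (edgeR adjusted p = 0.000431), and Vegfd, a ligand of the lymphatic receptor, by 0.47 ± 0.11 (edgeR adjusted p = 0.000275). Vegfa, the main ligand of Kdr, had 107 CPM at 3 and 103 at 28 months (-0.06, edgeR adjusted p = 0.341), and the co-receptor gene Nrp2 150 and 145 (-0.04, edgeR adjusted p = 0.678). Between 15 and 24 months 6 of these 12 were higher and none lower, where 6.28% of all genes tested passed with a higher level.

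Of 20 further pan-endothelial genes, 11 were higher at 28 months, none was lower and 9 did not pass, with a median of 0.18, where 23.5% of all genes tested passed with a higher level. The largest differences were those of Clec14a (0.49 ± 0.05, edgeR adjusted p = 3.92e-12), a surface lectin of endothelium, Esam (0.37 ± 0.05, edgeR adjusted p = 3.42e-09), a junction protein, and Erg (0.35 ± 0.08, edgeR adjusted p = 0.000115), an ETS factor. Mcam (0.15, edgeR adjusted p = 0.178) and Cd34 (0.06, edgeR adjusted p = 0.567), which other cells also express, did not pass. Between 15 and 24 months 11 of the 20 were higher and none lower.

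Genes of vessel types were mixed in direction. Between 3 and 28 months 49.4% of all genes tested passed, and 23.5% passed with a higher level. Of 12 arterial genes, 3 were higher at 28 than at 3 months and 2 lower (Bmx -0.32 and Efnb2 -0.15, both named after their values were seen). The 3 were Sema3g (0.43 ± 0.06, edgeR adjusted p = 5.77e-08), Notch4 (0.43 ± 0.06, edgeR adjusted p = 2.44e-09) and Gja4 (0.42 ± 0.08, edgeR adjusted p = 6.58e-06), the gene of the gap junction protein connexin 37, whereas Notch1 and Jag1, abundant also outside vessels, had values of -0.01 and -0.03 and did not pass. Of 7 venous and activation genes tested, 5 were higher and none lower, led by Vwf, the von Willebrand factor of haemostasis (0.72 ± 0.07, edgeR adjusted p = 6.46e-14), Vcam1 (0.43 ± 0.08, edgeR adjusted p = 1.82e-05) and Selp (0.40 ± 0.15, edgeR adjusted p = 0.0237), which both bind leukocytes, while Ephb4 (-0.03) and Ackr1 (0.15) did not pass. Of 8 capillary genes, 4 were higher and 3 lower. Cd36, a fatty acid transporter, was higher (0.80 ± 0.15, edgeR adjusted p = 1.71e-05), Aplnr, the apelin receptor, was lower (-0.75 ± 0.12, edgeR adjusted p = 5.28e-07), as was Esm1 (-0.44 ± 0.11, edgeR adjusted p = 0.000741), a gene of endothelial tip cells, and Apln did not pass (-0.14). The third of the lower genes, named after its values were seen, was Car4 (-0.33 ± 0.07, edgeR adjusted p = 0.000115), a carbonic anhydrase that colon surface epithelium also expresses and that had 479 CPM at 3 and 380 at 28 months on average, beside the lower epithelial markers given further on. Between 15 and 24 months the counts were 2 higher and 1 lower for arterial genes, 3 and 0 for venous and 3 and 1 for capillary ones. Without 15 months replicate 16 they were 2 and 0, 3 and 0, and 3 and 2, while the counts between 15 and 24 months of the VEGF system (6 of 12), of the further pan-endothelial genes (11 of 20) and of the further lymphatic genes (3 of 8) stayed as they were.

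Of 8 further lymphatic genes tested, 4 were higher at 28 than at 3 months, none was lower and 4 did not pass, with a median of 0.20. Among all genes tested 49.4% passed, and 23.5% passed with a higher level. The higher lymphatic genes included Foxc2, a factor of lymphatic valves (0.69 ± 0.18, edgeR adjusted p = 0.00145, at 0.233 and 0.371 CPM on average), Reln (0.41 ± 0.06, edgeR adjusted p = 1.29e-07) and Mmrn1 (0.35 ± 0.07, edgeR adjusted p = 1.65e-05). Flt4, which is counted in the VEGF list too, also passed (0.29 ± 0.06, edgeR adjusted p = 8.5e-05), and Nrp2 (-0.04) and Itga9 (0.11) did not. Between 15 and 24 months 3 of these 8 were higher and none lower. Ccl21a, which has near-identical copies, was not counted.

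Markers of pericytes, which wrap small vessels, and of macrophages were higher as well. Of 8 pericyte genes, 7 were higher at 28 than at 3 months, led by Notch3 (0.59 ± 0.08, edgeR adjusted p = 1.41e-08), Higd1b (0.41 ± 0.19, edgeR adjusted p = 0.0788, under 0.3 CPM on average) and Ndufa4l2 (0.40 ± 0.13, edgeR adjusted p = 0.00809), and Abcc9 did not pass (0.14). Of 8 macrophage markers, 7 were higher, led by Cd163 (0.81 ± 0.14, edgeR adjusted p = 1.17e-06), Cd68 (0.45 ± 0.09, edgeR adjusted p = 1.85e-05) and Csf1r (0.45 ± 0.10, edgeR adjusted p = 0.000115), and Adgre1 did not pass (0.01). Between 15 and 24 months, over which the endothelial genes rose, 5 of the 8 macrophage markers were higher (4 without 15 months replicate 16) with a median log2 fold change of 0.24, as large as the 0.24 of the pan-endothelial members, and 3 of the 8 pericyte genes were higher (3 without it) with a median of 0.18. The median summed level went from 218 to 261 CPM for macrophage markers and from 475 to 505 for pericyte genes over this step. Over the whole span the summed macrophage level ranged from 168 to 261 CPM at 3 months and from 163 to 386 at 28 months, with medians of 215 and 275. None of the macrophage markers was at 0 in all mice, and the part of macrophages and pericytes in the endothelial and Lyve1 results was not tested.

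Haemoglobin genes, which mark red blood cells, were higher too. Of 6 platelet and red blood cell genes tested, 5 were higher at 28 months, with Hbb-bs, Hba-a1 and Hbb-bt at 1.26 ± 0.24, 1.26 ± 0.23 and 1.22 ± 0.25 (edgeR adjusted p = 9.37e-06, 6.53e-06 and 6.16e-05), while Itga2b did not pass (0.12). These haemoglobin genes share near-identical stretches, so reads can be split between copies. The summed haemoglobin level ranged from 5.55 to 20.9 CPM at 3 months and from 5.18 to 84.3 at 28 months, and it was 8.73 to 32.0 in the 15-month mice and 6.01 to 52.8 in the 24-month mice. Between 15 and 24 months the median log2 fold change of these 6 was 0.39, above that of the pan-endothelial members, with Hbb-bs at 0.45 ± 0.23 and Hba-a1 at 0.43 ± 0.23 (edgeR adjusted p = 0.22 and 0.231). The spread between mice was wide, and 0 of the 6 passed in edgeR, with 1 at an unadjusted p under 0.05 and 1 in DESeq2. Their part in the endothelial results was not tested.

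Among other cells of the wall, all 4 mesothelial markers were higher at 28 months (Lrrn4 1.47 ± 0.31, Wt1 1.30 ± 0.31 and Upk3b 1.25 ± 0.31, edgeR adjusted p = 5.94e-05, 0.0005 and 0.000616), with a summed level of 1.29 to 5.94 CPM at 3 months and 2.67 to 13.7 at 28. From 15 to 24 months their median log2 fold change was 0.64 (0.39 to 0.83), above that of the pan-endothelial members, and 1 of 4 passed in edgeR (Lrrn4, adjusted p = 0.0815), or 0 without 15 months replicate 16. Of 6 leukocyte markers 1 was higher (Itgam, 0.39) and 1 lower, with a median of -0.07, and Ptprc and Coro1a did not pass. Of 6 enteroendocrine markers 1 was lower (Neurod1, -0.41), and Chga and Chgb did not pass. Of 6 epithelial markers 3 were lower (Cdh1 -0.17, Cdx2 -0.16 and Epcam -0.09), and Krt8 and Krt20 did not pass. Of 6 smooth muscle markers, 0 passed in edgeR and 0 in DESeq2, with 0 at an unadjusted p under 0.05 (Myh11 0.19 and Des 0.28 among them). Of 6 fibroblast markers 1 was higher (Dcn, 0.51) and 1 lower (Col1a1, -0.28), and Col1a2 and Pdgfra did not pass. From 15 to 24 months the median log2 fold change of these 6 was 0.14 (0.08 to 0.48), and 1 passed as higher, with and without 15 months replicate 16. Their median summed level went from 605 to 702 CPM over this step. Of 8 markers of enteric neurons and glia 1 was lower (Ret, -0.29), and Uchl1 did not pass (-0.15). The part of these cells in the endothelial results was not tested, apart from the smooth muscle covariate above.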

How the data were processed

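RNA was measured in 83 colon pieces, 1 per mouse. The deposited values were raw counts of read pairs per gene. Per the submitters' processing notes and the study's methods, the authors trimmed reads with cutadapt 2.8, aligned them with HISAT2 2.1.0 to GRCm38.p6, used SAMtools 1.9, and counted by strand with featureCounts of Subread 2.0.1, with annotation from Ensembl 99. Multi-mapping reads and gene copies limit such counts. Symbols, lengths and positions here were taken from GENCODE M21 on GRCm38, which matched 37652 of 37764 gene identifiers.

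Counts were scaled by TMM and filtered with filterByExpr, which left 18325 genes. They were fitted with edgeR 4.0.16 (R 4.3.3; glmQLFit and glmQLFTest) on age group and library batch over all mice, with Benjamini-Hochberg adjustment and a threshold of 0.1. DESeq2 1.42.0 was an alternative. Log2 CPM used a prior count of 2. Ratios and relations used permutation tests (numpy 2.4.6, scipy 1.17.1, threshold 0.05), and figures used matplotlib 3.10.9. The fits were tested on simulated data. P-values measure the spread between mice, which the labels give as separate animals. Depth had a median of 35495100 read pairs per mouse, and reads carried no molecular identifiers.

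Besides all 10 members, at most 3 called genes of largest change and 2 uncalled genes of highest level between 28 and 3 months were named from each list, and the 5 genes nearest to Cdh5, Lyve1 and Prox1. Flt4, Ptprc, Mrc1 and Chga were named as partners in the relations. Bmx, Efnb2 and Car4 fall outside this rule and were named after their values were seen. The members and the lists were chosen with earlier results of these data known. Alternatives covered the tool, the scaling, the low-count filter, the batch term, a block on replicate number, the threshold, leaving out each batch, and fitting only the compared ages. Leaving out 15 months replicate 16 and the smooth muscle covariate were added after seeing the data. Sequences came from RefSeq (GRCm38.p6). Proteins were not used here. The results of 2 genes that the naming rule picked are not reported here.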

Additional observations from a re-analysis of the deposited data

How the results depend on the processing

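The 10 genes' calls held under most alternatives. Of 96 counts of members called, 90 stayed within 1.5 times the reported count. The 96 include the steps at which the reported count was 0, where there was no call to hold. Between 24 and 15 months the count was 4 without library batch 3 in place of 7. In that fit 1076 of 18295 genes tested were called, in place of 2476 of 18325. For the test of a course that is not straight in age the count of members was 5 with library sizes only, 4 with the smooth muscle covariate, 1 without batch 1, 1 without batch 2 and 0 without batch 3, in place of 2. The shares of all genes in these settings are given with that result. Without 15 months replicate 16 the counts were 6 for 24 against 15 months (Kdr was lost) and 7 for 28 against 3 months. In these 2 comparisons 2593 and 9219 of 18363 genes tested were called. In all, 13 fold changes lost their call. Between 24 and 15 months these were Kdr and Sox17 at a threshold of 0.05, Kdr with no filter on low counts, without batch 2, without batch 3 and without 15 months replicate 16 (edgeR adjusted p = 0.113, 0.285, 0.436 and 0.115), Sox17 without batch 1, 2 or 3 (edgeR adjusted p = 0.126, 0.203 and 0.217) and Cdh5 without batch 3. The others were Cdh5 between 28 and 3 months without batch 2 (0.16, edgeR adjusted p = 0.128), Kdr there without batch 2 (0.09, edgeR adjusted p = 0.417) and Tie1 there without batch 3 (0.12, edgeR adjusted p = 0.135). Calls gained were Tek and Sox18 between 28 and 3 months without batch 1 (0.18 and 0.24, edgeR adjusted p = 0.065 and 0.0484), Prox1 there with the smooth muscle covariate, and Tek between 24 and 15 months in the 3 settings given with its result. Leaving out a batch leaves fewer mice, and the cause of each lost or gained call was not tested.

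Of 20 ratio values, 9 no longer passed. Kdr to Flt1 was -0.12 with medians, -0.0432 without batch 1 and -0.13 without batch 3. Lyve1 to Prox1 was 0.38 without batch 1 and 0.24 without batch 2. Tek to Tie1 was -0.0877 without batch 1 and -0.0633 without batch 3. Sox17 to Sox18 was 0.26 without batch 2 and 0.30 without batch 3. All 14 values of the relations kept their side of the threshold.

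Of 700 fold changes, 649 kept direction and call, and 32 changed sign, none of them called. For Tek between 28 and 24 months the value was 0.00368 in DESeq2, 0.00224 with its size factors in edgeR, 0.00383 with at least 10 counts in every mouse, 0.00635 with library sizes only, 0.00955 with only these ages, 0.000173 with the replicate block, 0.0117 with the smooth muscle covariate, 0.00163 without 15 months replicate 16, 0.0309 without batch 1 and 0.0471 without batch 3. For Prox1 it was -0.0295 (24 against 15 months, smooth muscle covariate), -0.0844 (24 against 15, without batch 3), -0.00487 (28 against 24, without batch 1), 0.0502 (15 against 9, without batch 2) and 0.0307 (28 against 3, without batch 2). Without 15 months replicate 16, Cdh5, Kdr and Tie1 were at 0.0294, 0.0161 and 0.0146 between 15 and 9 months. Without batch 1 the values were 0.0182 for Cdh5 (9 against 3), 0.00721 for Sox17, 0.0203 for Sox18 and 0.0204 for Tie1 (28 against 24), and 0.0186 for Tie1 (15 against 9). Without batch 2 they were -0.00233 for Lyve1 (28 against 24) and -0.000762 for Sox17 (9 against 3). Without batch 3 they were 0.00334, 0.0238 and 0.000388 for Cdh5, Kdr and Tie1 (15 against 9), 0.0279, 0.0195 and 0.0587 for Cdh5, Flt1 and Sox17 (28 against 24), and 0.0128 for Cdh5 (9 against 3).

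With the replicate number as a block (replicate block), 7 members were called for 24 against 15 months and 7 for 28 against 3 months, as without it. With this block 2131 and 8626 of 18325 genes tested were called. The replicate numbers did not pair the mice. Over 161 pairs of the same number the median correlation was 0.0103, 16.8% exceeded 0.1, and 3 of 83 mice correlated best with their own number.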
